A study of Mus musculus with 6 samples.

Results

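The genes described here are 10 immediate early genes of the mouse, taken from a fixed list of symbols and matched to their features on the array through Entrez gene IDs. They are Fos, Fosb and Fosl2 of the FOS family, Jun, Junb and Jund of the JUN family, Egr1, Egr2 and Egr3 of the EGR family, and Ier3. All 10 were measured, among 23279 genes tested. The rule uses no measured value, and no filter on low values was applied. The list was, however, chosen with earlier results of these data known. Ier3 encodes a small regulator of cell survival and of ERK signalling and does not bind DNA as a factor, so the list holds 9 transcription factors and 1 other gene.

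RNA came from whole fetal livers dissected at embryonic day 11.5 and was read on 6 Affymetrix arrays, 1 per labelled replicate. The 3 livers labelled knockout carried Stab2-Cre and floxed Gata4 (line B6;129-Gata4tm1.1Sad/J) on both alleles, and the titles of the 3 control livers call them Stab2Cre;Gata4 heterozygous. The cross was of Stab2-Cretg/wt;Gata4fl/wt with Gata4fl/fl mice, so every embryo received at least 1 floxed Gata4 allele and both groups are named for the Cre. The Cre is driven by the promoter of Stab2, a scavenger receptor gene of sinusoidal endothelium, whereas the RNA is that of all liver cells. No source used here tells which embryos were littermates or how many livers went into an array. The replicates are labelled biological, and p-values measure only the spread between these arrays.

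Immediate early genes are transcribed within minutes of a stimulus, with no need for new protein. Growth factor receptors act through the kinases ERK, JNK and p38 on proteins already bound at their promoters, such as serum response factor with its ELK partners, and CREB. FOS proteins pair with JUN proteins to form AP-1, a dimer that binds DNA through a leucine zipper and basic region, and EGR proteins bind GC-rich sites through zinc fingers. In the fetal liver Jun is known to be needed for hepatoblasts to survive and for the organ to grow.

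As a check of the arrays, the Gata4 feature read 10.38, 10.26 and 10.64 in the livers labelled knockout and 9.90, 9.96 and 9.87 in controls (log2 value), so it was not lower in the livers labelled knockout. No source used here tells whether its probes lie in the deleted part, so the feature checks nothing, and the directions below rest on the labels. Embryo sex was uneven. Xist read at least 10.2 in control replicate 2 and in every liver labelled knockout, and at most 3.96 in control replicates 1 and 3, which alone had Uty above 8. Heart muscle markers also varied from array to array: the summed linear signal of 6 such genes, on the log2 scale, was 8.77, 9.15 and 11.55 in the livers labelled knockout and 10.07, 11.93 and 9.12 in controls. The hepatoblast products Alb and Afp, which define the labelled tissue, were among the brightest features of every array (13.3 to 13.5), where sorted values are the same in all arrays, so no difference in their level can be read from them.

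Of the 8 members with a promoter window, 5 hold the letters of a motif searched here close to their start in RefSeq (build GRCm38.p6), and these are printed. The share of all windows that hold any of these motifs was not counted. Windows from 250 bases before to 50 bases after a transcript's start were searched on both strands. The letters searched were TGACGT (the core of a CREB site), TGANTCA (the AP-1 site), TGACATCA (the AP-1 variant known from the Jun promoter), GCGNGGGCG (the EGR site), AGATAA (bound by GATA factors) and the CArG box of serum response factor; no letters of 1 motif lay inside another in the stretches shown. Of all 32851 windows in the table, 7.51% held TGACGT, 7.81% TGANTCA, 3.62% TGACATCA, 5.55% GCGNGGGCG, 11.2% AGATAA and 1.63% a CArG box. The table matched 8 of the 10 members, with no window for Egr1 or Egr3. Egr2 had 5 windows, of which the first with the most matches is shown. Each line gives the 150 bases before the start, 5′ to 3′ on the gene's strand, with matches in capitals. They lie at chr12:85473740-85473889 (plus strand, Fos), chr10:67537719-67537868 (plus, Egr2), chr4:95052223-95052372 (minus, Jun), chr7:19310046-19310195 (minus, Fosb) and chr5:32136322-32136471 (plus, Fosl2).
Fos: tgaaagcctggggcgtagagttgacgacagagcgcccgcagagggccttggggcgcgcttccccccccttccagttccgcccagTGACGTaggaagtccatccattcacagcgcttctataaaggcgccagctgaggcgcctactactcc
Egr2: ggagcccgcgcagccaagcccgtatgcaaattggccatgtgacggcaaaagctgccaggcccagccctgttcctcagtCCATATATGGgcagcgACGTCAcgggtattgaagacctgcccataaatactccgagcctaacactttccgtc
Jun: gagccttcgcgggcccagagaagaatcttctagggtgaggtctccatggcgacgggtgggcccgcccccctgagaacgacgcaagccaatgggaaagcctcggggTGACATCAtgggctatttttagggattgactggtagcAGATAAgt
Fosb: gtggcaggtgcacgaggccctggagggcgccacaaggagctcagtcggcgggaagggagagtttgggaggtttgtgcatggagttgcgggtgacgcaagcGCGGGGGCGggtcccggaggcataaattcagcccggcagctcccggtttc
Fosl2: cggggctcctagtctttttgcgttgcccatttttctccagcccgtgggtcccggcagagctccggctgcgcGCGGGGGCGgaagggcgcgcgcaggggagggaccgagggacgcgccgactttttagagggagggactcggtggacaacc

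The Fos stretch holds TGACGT, and that of Egr2 a CArG box followed by TGACGT on the other strand. In Jun the capitals mark TGACATCA and then AGATAA. Those of Fosb and Fosl2 each mark 1 EGR site. The windows of Junb, Jund and Ier3 held none of these letters, and the 1 window given for Jund may be that of a minor transcript start. A match describes the sequence and does not show that a factor was bound.

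Egr1 was higher in the livers labelled knockout, and it was the 1 member of 10 that passed the test. Under limma, with Benjamini-Hochberg adjustment over all 23279 genes and a threshold of 0.05, 1 member was higher and 0 were lower, where 3.59% of all genes were higher, 2.77% lower and 6.36% either. At an unadjusted p under 0.05 there were 4 higher members (Jun, Jund, Egr1 and Ier3) and 1 lower member (Junb), where 11.1% of all genes were higher, 11.5% lower and 22.5% either. The groups did not overlap in 3 members that read higher and 1 that read lower, against 13.0% and 14.3% of all genes. The median log2 fold change over the 10 members was 0.33, beside −0.0078 over all genes, with 8 members above 0 and 2 below. In RNA from a whole organ, a change in the number of cells of a type and a change of RNA per cell cannot be told apart.

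**Figure D1:**
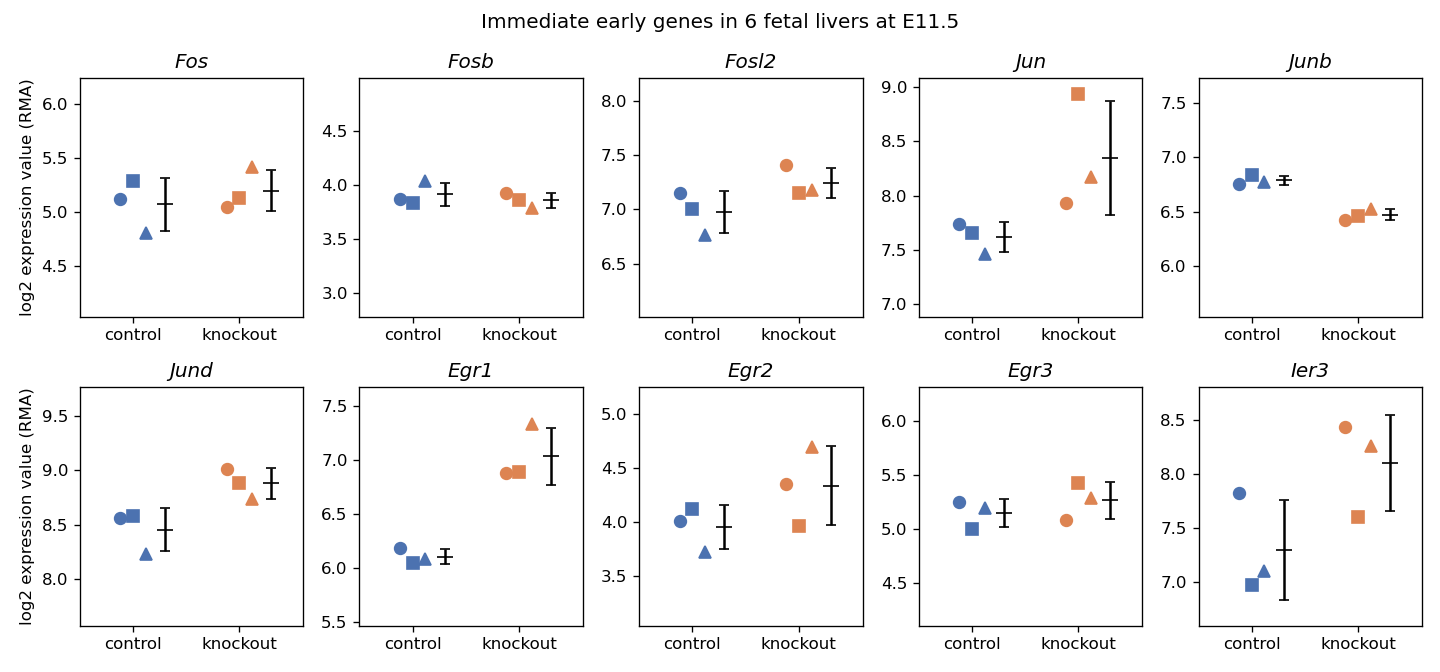
Log2 expression value (RMA) of each of the 10 genes in every array, with circles, squares and triangles for replicates 1, 2 and 3 and black bars for the mean ± SD of each group (n = 3). Every panel spans the same range of log2 units; the groups are apart in Jun, Junb, Jund and Egr1, with Junb alone lower in the livers labelled knockout.

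The EGR proteins are zinc finger factors induced through serum response factor. Egr1 (Entrez ID 13653), the most widely expressed of them and a known responder to growth factors and to flow in vessels, read 6.88, 6.89 and 7.34 in the livers labelled knockout and 6.18, 6.05 and 6.09 in controls (log2 values). The lowest of the former lay 0.69 above the highest control, and the control arrays stayed within a narrow band. It rose 1.90-fold, from 6.11 ± 0.07 to 7.03 ± 0.26 (SD, n = 3; log2 fold change 0.93, SE 0.14, adjusted p = 0.0145). Of all genes, 190 (0.816%) had a larger positive difference. Leaving out control replicate 2 (0.90, adjusted p = 0.0519) or control replicate 3 (0.92, adjusted p = 0.0691) ended this call. So did setting the livers labelled knockout against the 1 control of the same sex, whose difference was 0.98. This contrast was fitted with a sex term (adjusted p = 0.169) and with the other two controls left out (adjusted p = 0.278), where the lone control is assumed to vary like the other group and 0 of all genes passed by limma (2783 at an unadjusted p under 0.05). The adjusted p of Egr1 ran from 0.00894 to 0.278 over the alternatives.

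Egr2 (13654), a factor of neural crest, Schwann cells and myeloid cells, read 4.35, 3.97 and 4.69 in the livers labelled knockout against 3.72 to 4.12 in controls. Its groups overlapped, since replicate 2 of the livers labelled knockout lay below 2 of the controls. The difference of 0.39 (SE 0.19, adjusted p = 0.280) did not pass, with a 95% interval from −0.05 to 0.82. Egr3 (13655), a relative studied mainly in neurons, muscle spindles and lymphocytes, ranged from 5.09 to 5.43 in the livers labelled knockout and from 5.01 to 5.25 in controls (0.11, 95% interval −0.16 to 0.39, adjusted p = 0.659). The 2 arrays richest in heart muscle signal, replicate 3 of the livers labelled knockout and control replicate 2, were also the highest of their groups for Egr2 and for Fos. For Egr1 this held in the livers labelled knockout, whereas control replicate 2 had the lowest Egr1 value of all arrays. The part of heart tissue in these values was not tested.

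Of the JUN family 0 of 3 genes passed. The groups did not overlap in any of them, with Jun and Jund reading higher and Junb lower. Of all genes, 13.0% read higher and 14.3% lower without overlap. Jun (16476), the partner of FOS in AP-1 and the target of JNK, read 7.93, 8.94 and 8.17 in the livers labelled knockout and 7.74, 7.65 and 7.46 in controls. All of the former lay above all of the latter, but replicate 2 of the livers labelled knockout stood apart above the other arrays. Its difference of 0.73 (1.66-fold, SE 0.24, adjusted p = 0.113) did not pass, with a 95% interval from 0.19 to 1.27, and without that array it was 0.43 (adjusted p = 0.105). Jund (16478), the JUN protein present in most resting cells, read 9.02, 8.89 and 8.74 against 8.56, 8.58 and 8.22. The groups were apart by 0.16, and the difference of 0.43 (1.34-fold, SE 0.13, adjusted p = 0.0936, 95% interval 0.13 to 0.72) did not pass.

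Junb (16477), a weaker activator that can restrain Jun and that acts in placental vessels and in myeloid cells, lay on the other side. It read 6.42, 6.46 and 6.53 in the livers labelled knockout and 6.76, 6.83 and 6.78 in controls. Both groups were tight and did not overlap, with means of 6.47 ± 0.05 and 6.79 ± 0.04 (SD, n = 3). The difference of −0.32 (1.25-fold, SE 0.09, 95% interval −0.52 to −0.12, adjusted p = 0.0688) did not pass. It did so with the dimmest 50% of all genes left out (adjusted p = 0.0421). In that setting 2063 of 11640 genes passed, beside 1480 of 23279 in the main fit. At 0.05 it passed in no other alternative. The adjusted p by limma was 0.151 with a variance trend, 0.137 with the replicate block and 0.123 to 0.190 with an array left out.

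To compare members directly, 1 gene's log2 value was subtracted from another's within each array, for 6 pairs chosen after their values were seen. Jun minus Junb was 1.88 ± 0.52 in the livers labelled knockout and 0.83 ± 0.15 in controls (SD, n = 3), a shift of 1.05 with no overlap between groups. Jund minus Junb shifted by 0.74, again with no overlap, and Jun minus Jund by 0.30 with overlapping groups. The lack of overlap in the pairs with Junb follows from the single genes and adds nothing to them. Jun and Jund lay above every control, and Junb lay below. The other 3 pairs set Egr1 against Egr2, Egr3 and Fos, all dim genes that did not pass; their groups did not overlap either, as those of Egr1 alone did not. Exact two-sided permutation tests gave p = 0.1 for the 5 pairs without overlap, the smallest value that 3 arrays against 3 allow, and p = 0.5 for Jun minus Jund. Adjusted over the 6 pairs these exact p-values were 0.12 and 0.5. With 3 arrays against 3 no pair could have reached 0.05, so these tests decide nothing about the pairs.

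Of the FOS family, whose proteins need a JUN partner to bind DNA, 0 of 3 genes passed by limma, and 0 had an unadjusted p under 0.05. Fos (14281), the classical marker of recent stimulation, read 5.05, 5.13 and 5.42 in the livers labelled knockout and 5.13, 5.29 and 4.81 in controls. The groups overlapped (0.13, SE 0.15, 95% interval −0.22 to 0.47, adjusted p = 0.708), and against control replicate 2 alone the sign turned (−0.09, adjusted p = 0.902). Fosb (14282), a further member of the family, ranged from 3.79 to 3.93 in the livers labelled knockout and from 3.83 to 4.04 in controls (−0.06, 95% interval −0.28 to 0.17, adjusted p = 0.814). Fosl2 (14284), which encodes FRA2 and is expressed in bone, muscle and vessels, read 7.41, 7.15 and 7.18 against 7.15, 7.01 and 6.77. Its groups met at 7.15, and the difference of 0.27 (SE 0.13, 95% interval −0.02 to 0.56, adjusted p = 0.259) did not pass. Fos, Fosb, Egr2 and Egr3 were among the dimmest 50% of all genes, and no detection call was used here that would tell such values from background.

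Ier3 (15937), an early response gene that is also driven by NF-κB and by stress, had the widest spread between arrays of 1 group apart from Jun. It read 8.44, 7.60 and 8.26 in the livers labelled knockout and 7.83, 6.97 and 7.10 in controls. Replicate 2 of the former lay below control replicate 1, so the groups overlapped. The mean difference was 0.80 (1.74-fold, SE 0.27, 95% interval 0.17 to 1.43, adjusted p = 0.128) and did not pass. Against control replicate 2 alone, the 1 control that matched the livers labelled knockout in Xist and Uty, the difference was 1.13 for Ier3, 0.69 for Jun, 0.30 for Jund and −0.36 for Junb.

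**Figure D2:**
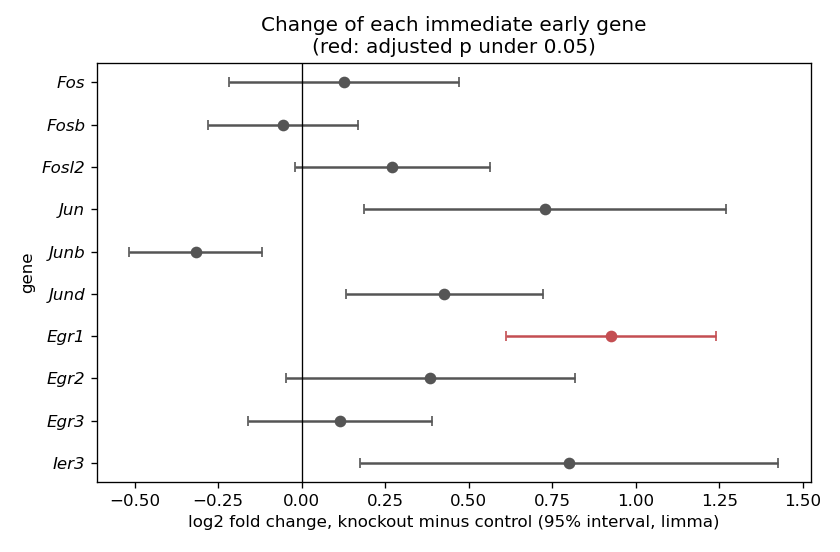
Log2 fold change of each gene, livers labelled knockout minus control (points), with 95% intervals from limma (bars); n = 3 arrays a group. Egr1, in red at 0.93, alone passed after adjustment, the interval of Jun spans 0.19 to 1.27, and that of Junb lies below 0.

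Of the remaining EGR system, the corepressor Nab2, itself induced by EGR proteins and acting as their brake, rose by 0.51 (SE 0.10, adjusted p = 0.0277). It read 9.05, 9.07 and 9.10 in the livers labelled knockout against 8.63, 8.64 and 8.42 in controls, which do not overlap. Egr4, Nab1 and Wt1 did not pass, which makes 1 of 4 measured genes higher and 0 lower (list median 0.36). This call and those in the lists below come from the main fit, in which 1480 of all genes passed (3.59% higher and 2.77% lower). Without control replicate 3, 41 did, and with a sex term fewer still. Which of the genes named from these lists kept their call is not given here.

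Among regulators upstream, 2 of 12 rose and 0 fell (median 0.08), where 3.59% of all genes rose and 2.77% fell past the adjusted threshold. They were Elk1, an ERK-activated partner of serum response factor (0.39, SE 0.09, adjusted p = 0.0412), and Mrtfb, an actin-regulated coactivator of the same factor (0.44, SE 0.10, adjusted p = 0.0387). Srf itself did not pass (−0.10, adjusted p = 0.607). Of 14 measured kinases and GTPases of the ERK, JNK and p38 cascades 0 passed by limma, with 6 higher and 1 lower at an unadjusted p under 0.05, beside 11.1% and 11.5% of all genes (median 0.05). Of 14 phosphatases and feedback inhibitors, 1 rose and 0 fell (median 0.09): Dusp6, the ERK-specific phosphatase that ERK itself induces, read 9.68, 9.72 and 9.84 against 8.96, 9.14 and 9.21. It rose 1.56-fold (0.64, SE 0.10, adjusted p = 0.0174). Dusp1, an immediate early phosphatase, did not pass (0.02, adjusted p = 0.971).

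Other bZIP proteins that can join or oppose AP-1 showed no common direction. Past the adjusted threshold, 3.59% of all genes rose and 2.77% fell. Of 12 measured, 0 rose and 1 fell (median −0.05): Maf, a factor of macrophages and sinusoidal endothelium among others, by 0.48 (log2; SE 0.10, adjusted p = 0.0340). Fosl1 (−0.08, adjusted p = 0.710) and Atf3 (−0.21, adjusted p = 0.583) did not pass. Of 18 other immediate early transcription factors, 1 rose and 1 fell (median 0.02). Bhlhe40, a repressor also known as a hypoxia and clock gene, rose by 1.48 (SE 0.19, adjusted p = 0.0106), and the flow-responsive endothelial factor Klf2 fell by 0.51 (SE 0.09, adjusted p = 0.0272). Ier2 (0.14, adjusted p = 0.639), Nr4a1 (0.38, adjusted p = 0.188) and Myc (0.11, adjusted p = 0.709) did not pass.

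Of 30 other immediate early effectors 7 rose and 0 fell, beside 3.59% and 2.77% of all genes. The other 23 did not pass. Over the 30 genes, 21 differences lay above 0 and 9 below, with a median of 0.14. The largest fall was that of Btg2 (−0.71, adjusted p by limma 0.0728). The smallest p-values among the 7 were those of the kinase Plk2 (0.77), the mRNA-decay protein Zfp36l1 (0.57), the Notch target Hes1 (0.59), the BMP-induced inhibitors of helix-loop-helix factors Id2 (0.54) and Id3 (0.58), and the ADP-ribosyltransferase Tiparp (0.53). Their adjusted p-values ran from 0.00932 for Plk2 to 0.0431 for Id3. Heat shock genes, another group that responds to stress within a short time, had 0 of 9 past the threshold by limma, with 0 higher and 3 lower at an unadjusted p under 0.05, again beside 11.1% and 11.5% of all genes (median −0.21), and Hspa1a differed by −0.32 (adjusted p = 0.631).

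**Figure D3:**
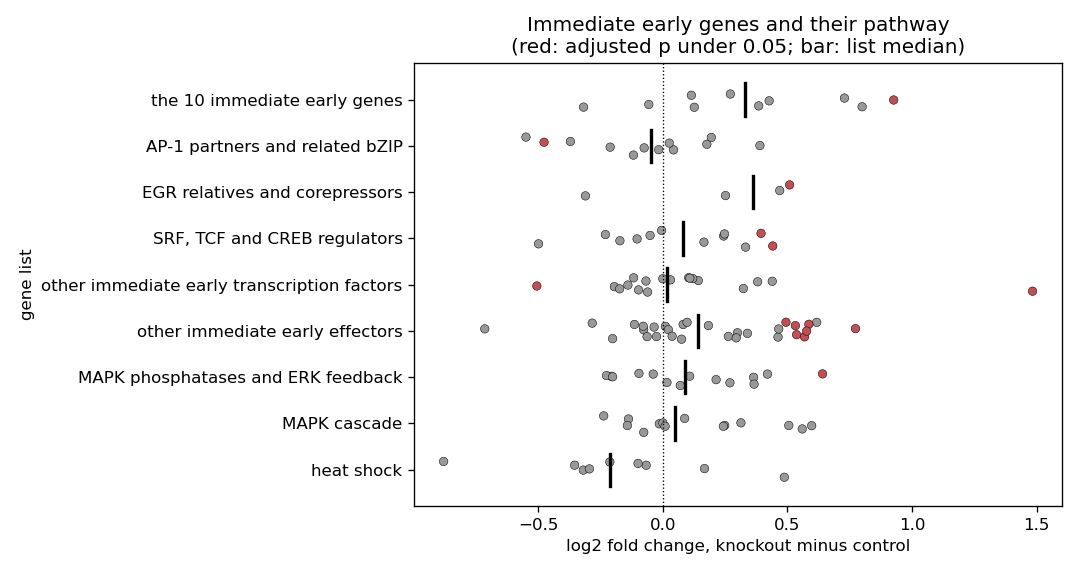
Log2 fold changes, livers labelled knockout minus control, of the 10 immediate early genes and of 8 related gene lists; each point is a gene, red points passed at an adjusted p under 0.05, and bars mark list medians. The medians are 0.33 for the 10 genes, 0.36 for EGR relatives and −0.05 for AP-1 partners, with 7 red points among the effectors and 0 to 2 in each of the other lists.

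Markers of several liver cell types differed between the same groups. At an adjusted p under 0.05 by limma, 3.59% of all genes were higher and 2.77% lower. Of 8 endothelial markers 4 rose (Pecam1, Emcn, Cdh5 and Flt1) and 0 fell, with a median of 0.48 and a summed signal of 12.12 to 12.44 in the livers labelled knockout against 11.72 to 11.91 in controls (log2 of the summed linear values). Of 8 mesenchymal markers 4 rose (Col1a2, Pdgfrb, Vim and Pdgfra) and 0 fell, with a median of 0.54 and sums of 13.50 to 13.59 against 12.90 to 13.07. Macrophage markers fell in 9 of 10 cases, among them Mrc1, Mpeg1, Marco, Timd4, Cx3cr1 and Csf1r, with a median of −1.19 and sums of 10.27 to 10.64 against 11.34 to 11.67. Erythroid markers fell in 5 of 9 (Tal1, Nfe2, Epor, Klf1 and Add2), with a median of −0.74 and sums of 12.84 to 13.05 against 13.31 to 13.86. Of 8 hepatoblast and 6 heart markers 0 passed by limma. At an unadjusted p under 0.05, 3 hepatoblast markers were higher and 0 lower. For heart markers 0 were higher and 1 lower. Of all genes, 11.1% were higher and 11.5% lower at that threshold. The medians were 0.13 for hepatoblast and −0.45 for heart markers, the latter −1.79 against control replicate 2 alone. Values on these arrays have no true zero, so no marker could be called absent. The part of cell composition in the values of Egr1, the JUN genes and Ier3 was not tested.

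The array with the highest Jun value was also the highest for the mesenchymal receptor gene Pdgfra, which read 10.32, 11.41 and 10.41 in the livers labelled knockout and 9.46 to 9.63 in controls. Most other mesenchymal markers did not share this. Among the livers labelled knockout, that array was the lowest for Pdgfrb, Col1a1, Col1a2, Col3a1, Dcn and Des, and Vim was nearly level (12.43 to 12.45). The median of the mesenchymal markers over the control mean was 0.66, 0.36 and 0.56 in replicates 1, 2 and 3. Patterns over the 6 arrays were compared among 3571 genes with an SD of at least 0.3. Those most like Jun were Armcx4, Foxf1 (a forkhead factor of visceral mesenchyme) and Sbk1 (Pearson r 0.995 each), none of which passed. For Egr1 they were Mdfi (0.993), Acvrl1, an endothelial BMP receptor (0.991), and Edil3 (0.991), which all rose, by 0.71, 0.93 and 0.72. For Fos they were 9430037G07Rik (0.986), Shisa2 (0.985) and 5830454E08Rik (0.974), none of which passed. These values are the highest of many on 6 arrays in 2 groups and describe likeness only.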

How the data were processed

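The authors deposited log2 expression values from RMA, as the submitters' processing notes name it; no version, chip definition or setting is stated there. RMA subtracts background, quantile-normalises and summarises probes per feature; sorted values were identical in all 6 arrays, so a change shared by most genes would be hidden. Of 24479 features, 23281 had a gene name (23156 from RefSeq GRCm38.p6 gene IDs, 125 from the platform annotation); where 2 features shared a name the brighter was kept, leaving 23279 genes. Columns without a sample numbered 0.

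Genes were fitted with limma 3.58.1 in R 4.3.3 (lmFit, eBayes), knockout minus control with no covariate, on 3 and 3 arrays, after a test on simulated data; 4 residual and 4.06 prior degrees of freedom. Differences between genes were tested with scipy 1.17.1. The number of arrays limits the precision.

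The 10 members and 14 other gene lists (162 of 173 entries measured; the others not analysed here) were chosen with earlier results of these data known. In other lists, genes past the threshold were named, at most 6 by p, plus Fosl1, Atf3, Ier2, Nr4a1, Dusp1, Srf, Nab2, Myc and Hspa1a, and the 3 patterns most like Fos, Jun and Egr1. Alternatives were variance trend, robust eBayes, array weights, 2 rescalings, filters on the dimmest 25% and 50%, replicate block, sex term, control replicate 2 alone, each array left out, and an adjusted p of 0.1.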

Additional observations from a re-analysis of the deposited data

How the results depend on the processing

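Genes past the threshold numbered 1480, 686 with the replicate block, 3 with a sex term, 0 against control replicate 2 alone and 2700 at an adjusted p of 0.1; leaving out 1 array gave 41 (control replicate 3) to 1395. With the sex term 3259 genes, and against control replicate 2 alone 2783 genes, had an unadjusted limma p under 0.05, with 3 members in each (Junb, Egr1 and Ier3). Members past the threshold numbered 1, with 2 without the dimmest 50% (Egr1 and Junb), 2 with the replicate block (Egr1 and Ier3), 3 at an adjusted p of 0.1 (Egr1, Jund and Junb), 0 with the sex term and against control replicate 2 alone, and 0 to 1 with an array left out. Without the dimmest 50%, 2063 of 11640 genes passed. The members' median of 0.33 was 0.58 in that setting, which leaves 6 members, and kept within 0.22 to 0.39 otherwise. Fos turned to −0.086 with the sex term and against control replicate 2 alone, and ran from −0.0062 to 0.23 with an array left out; Fosb turned to 0.028 in the first pair of settings and ran from −0.10 to 0.0050. The other 8 members kept their direction in all alternatives. Over all genes, same-numbered livers did not deviate together (correlations −0.05, −0.01 and −0.08). With 3 arrays a group this cannot tell whether the numbers pair them. With the replicate block the SE of Ier3 was 0.14, beside 0.27 in the main fit. The causes were not tested.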
